A study of Mus musculus with 12 samples.

Results

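Eda2r, Phlda3, Ephx1, Ccng1 and Trp53inp1 are 5 targets of the transcription factor p53 that were lower in colonic crypts after p53 was deleted. The labels name no treatment. The 5 were chosen by these measured values, namely their counts and TPM in p53-deleted and p53-floxed crypts, so their lower level after deletion describes the choice and was not tested here. They are 5 of the 55471 genes listed, and all 5 passed the filter on low counts that left 14610 genes for testing, Eda2r and Phlda3 through the floxed groups alone. Every value of the CBP genotype, which the choice did not use, was tested.

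p53, encoded by Trp53, binds short DNA elements and recruits coactivators such as CBP, the acetyltransferase encoded by Crebbp. After DNA damage it raises a broad set of genes for cell cycle arrest, repair and death, and in unstressed tissue part of that set keeps a low, p53-dependent level. In the intestinal crypt, where stem and transit-amplifying cells divide, p53 is known chiefly for its response to irradiation. The 5 genes act at different points of this pathway. Eda2r encodes XEDAR, a receptor of the TNF receptor family for ectodysplasin A2. Phlda3 encodes a pleckstrin homology domain protein that inhibits Akt. Ephx1 encodes microsomal epoxide hydrolase, which detoxifies epoxides. Ccng1 encodes cyclin G1, which brings protein phosphatase 2A to Mdm2. Trp53inp1 encodes a stress protein that takes part in p53 phosphorylation and in autophagy.

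The study asked whether alanines in place of CBP serines that are normally phosphorylated change the colonic epithelium through p53. RNA of colonic crypts was sequenced from 12 C57BL/6J mice, 3 in each of 4 groups, with 1 library per mouse. Per the study's methods the mice were females of 8 weeks unless stated otherwise. CBPWTp53-floxed mice carried normal CBP and CBPAAp53-floxed mice the alanine form, which is a knock-in in every cell of the body. CBPWTp53ΔIEC and CBPAAp53ΔIEC were the same CBP genotypes with Trp53 deleted in intestinal epithelial cells by Villin-Cre. All 4 groups carried loxP-flanked Trp53 alleles, and the floxed groups had no Cre, so an effect of Cre and one of the deletion cannot be told apart. Other cells of a crypt preparation keep their Trp53.

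The position of each gene was read from the GENCODE vM21 annotation of GRCm38. Eda2r (ENSMUSG00000034457) lies on the minus strand of chromosome X from 97333840 to 97377216, and Ephx1 (ENSMUSG00000038776) on the minus strand of chromosome 1 from 180976210 to 181020904. Phlda3 (ENSMUSG00000041801) lies on the plus strand of chromosome 1 from 135766119 to 135769136, and Trp53inp1 (ENSMUSG00000028211) on the plus strand of chromosome 4 from 11156431 to 11174379. Ccng1 (ENSMUSG00000020326) lies on the minus strand of chromosome 11 from 40748552 to 40755311. Only Ephx1 overlapped another annotated gene, the pseudogene Gm36961, so that reads in the shared stretch are uncertain.

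The start region of Ccng1 is shown because it alone among the 4 start regions that could be searched held a close match to the p53 consensus element. The element searched is the 20-base p53 consensus, a pair of 10-base half-sites that may be parted by 1 base, and it reads the same on both strands. A match was a stretch with the central C and G of both half-sites intact and at most 2 mismatches. The windows, from RefSeq on GRCm38.p6, run from 250 bases before to 50 bases after the transcript start, and 4 of the 5 genes had one (Eda2r, Phlda3, Ephx1 and Ccng1). Cdkn1a had a pair of windows, and its better stretch is printed. The Ephx1 window belongs to a transcript start inside the GENCODE gene. Among all 32851 windows of the same 300 bases, 224 (0.682%) held a match, and 36 (0.11%) held one with at most 1 mismatch. The window of Ccng1 (chr11:40755237-40755536, minus strand, 5′ to 3′) has its match in capitals, which starts 195 bases before the transcript start.
Ccng1: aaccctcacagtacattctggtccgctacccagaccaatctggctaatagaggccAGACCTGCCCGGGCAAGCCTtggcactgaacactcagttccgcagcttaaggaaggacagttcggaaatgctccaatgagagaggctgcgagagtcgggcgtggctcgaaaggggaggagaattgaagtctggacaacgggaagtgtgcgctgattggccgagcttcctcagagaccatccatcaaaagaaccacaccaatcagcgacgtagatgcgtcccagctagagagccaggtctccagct

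The best stretches of the other windows are set beside it, with bases that fit the consensus in capitals and those that do not, or that form the spacer, in lower case. Cdkn1a, which encodes the cell cycle inhibitor p21, and Bax, which encodes a pro-apoptotic Bcl-2 family protein, are shown because both are textbook targets that held a match and yet did not pass the test after p53 deletion.
Ccng1 (chr11:40755462-40755481, minus strand): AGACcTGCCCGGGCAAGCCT
Eda2r (chrX:97377322-97377341, minus strand): tGGCcgGTgTttACccGCCa
Phlda3 (chr1:135766042-135766061, plus strand): GGcCcTGTCCGGGCggGTgC
Ephx1 (chr1:181017544-181017563, minus strand): GGGCTAGTggGGGCggGgCT
Cdkn1a (chr17:29090928-29090947, plus strand): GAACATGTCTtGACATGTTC
Bax (chr7:45467079-45467099, minus strand): AGGCAAGCTTtGAACTTGCgg
The Ccng1 stretch had 1 mismatch, and so had that of Cdkn1a, while that of Bax had 2 mismatches and a spacer of 1 base. Phlda3 and Ephx1 had 5 mismatches each and Eda2r had 9, so these letters were not in their windows. The 3 genes with the least RNA left after deletion thus had no match in these windows. Introns and more distant sequence were not searched, and Trp53inp1 had no window, so p53 elements elsewhere were not assessed. Besides Ccng1, 97 tested genes had a window with a match, and after p53 deletion, averaged over both CBP genotypes, 0 of them passed the test as lower and 6 as higher by edgeR. The share of all tested genes that passed as lower in that comparison was 0.732%, and the share that passed as higher was 2.77%. A gene passed where its adjusted p was below 0.05 and its log2 fold change exceeded 0.5 in either direction.

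The 12 libraries held between 11177430 and 18029125 counted reads. The deleted gene checked the labels. Trp53 had 24.7, 28.6 and 30.4 TPM in CBPWTp53-floxed mice and 33.5, 30.8 and 23.3 TPM in CBPAAp53-floxed mice, against 5.44, 3.26 and 4.15 TPM in CBPWTp53ΔIEC mice and 5.05, 4.66 and 6.13 TPM in CBPAAp53ΔIEC mice. TPM is a transcript level scaled to gene length and library size. Every p53-deleted mouse lay below every floxed mouse, and 15.4% of the mean TPM was left in CBPWTp53ΔIEC and 18.1% in CBPAAp53ΔIEC crypts. The epithelial markers Epcam (1011 to 1477 TPM) and Krt8 (4315 to 6169 TPM) were high in all libraries. The 6 Paneth cell markers, genes of a cell type of the small intestine, summed to between 23.9 and 261 TPM in 8 libraries and to 930 TPM in CBPAAp53-floxed replicate 2, 2239 and 4123 TPM in CBPAAp53ΔIEC replicates 1 and 3, and 16325 TPM in CBPWTp53ΔIEC replicate 1. The 7 small intestine markers summed to 6117 TPM in CBPWTp53ΔIEC replicate 1, 3357 TPM in CBPAAp53ΔIEC replicate 3 and 3036 TPM in CBPAAp53-floxed replicate 2. They summed to 1593 TPM in CBPAAp53ΔIEC replicate 1, and to between 667 and 1585 TPM in the other libraries. These libraries thus differed in more than Paneth cell genes. Colon markers were high in the same 4 libraries too and summed to between 16313 and 22998 TPM.

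**Figure D1:**
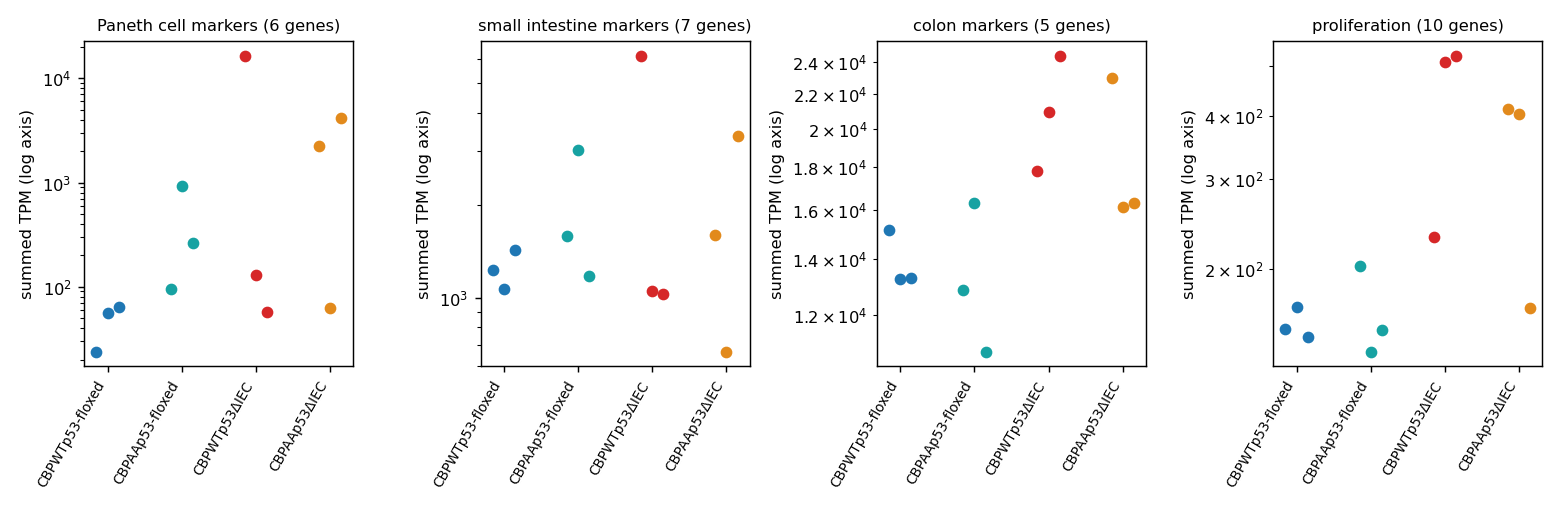
Summed TPM (log axes, each with its own range) of the Paneth cell, small intestine, colon and proliferation lists in every library, with replicates 1 to 3 from left to right within each group. CBPWTp53ΔIEC replicate 1 had 16325 TPM of Paneth cell markers, and CBPWTp53ΔIEC replicate 1 and CBPAAp53ΔIEC replicate 3 had the lowest proliferation sums of their groups, 231 and 168 TPM.

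Basal levels of the 5 genes differed widely in crypts with p53. In CBPWTp53-floxed mice Ccng1 had a mean of 111 TPM, above 92.3% of the tested genes, followed by Trp53inp1 (60.5 TPM), Ephx1 (19.8 TPM), Phlda3 (1.83 TPM) and Eda2r (0.736 TPM), the last above only 6.22% of them. The order was the same in all 4 groups. Each gene lay above the next in every mouse of a group, except that Phlda3 and Eda2r overlapped in both p53-deleted groups, where each had 3 reads or fewer in every library. A lower level in whole crypts can come from fewer cells that express a gene or from less RNA in each cell, and these cannot be told apart in bulk RNA.

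**Figure D2:**
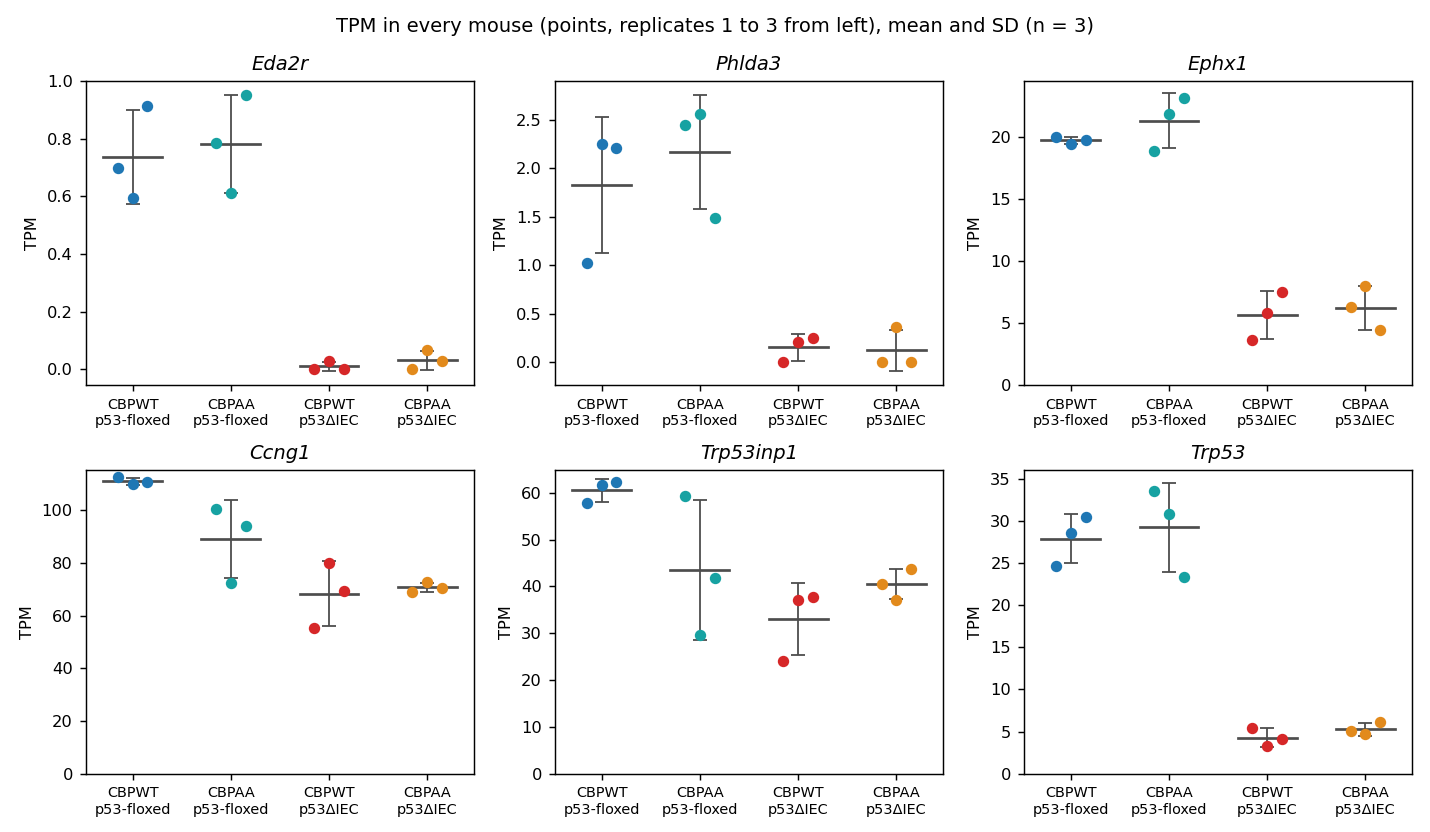
TPM of the 5 genes and of Trp53 in every mouse (points, replicates 1 to 3 from left to right), with the mean and SD of each group (n = 3). Eda2r, Phlda3 and Ephx1 separated floxed from p53-deleted mice completely, whereas Trp53inp1 in CBPAAp53-floxed mice spread from 29.6 to 59.2 TPM across the range of the CBPAAp53ΔIEC mice.

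Eda2r, the receptor, was at or near 0 reads without p53. Its reads numbered 18, 23 and 36 in CBPWTp53-floxed mice and 23, 27 and 29 in CBPAAp53-floxed mice, against 0, 1 and 0 in CBPWTp53ΔIEC mice and 0, 2 and 1 in CBPAAp53ΔIEC mice. The groups did not overlap at either CBP genotype. Scaled to library size, the summed reads after deletion were 1.45% of those in floxed mice with normal CBP (95% exact conditional interval 0.0361% to 8.30%), from 1 read against 77. With the alanine form they were 3.76% (0.759% to 11.4%), from 3 reads against 79. These intervals cover counting error only. The fitted log2 fold change was -5.67 (SE 0.71) and -4.61 (SE 0.59), and values fitted on so few reads depend on the small count that edgeR adds. The 95% interval from this SE, -7.20 to -4.14 with normal CBP, is narrower than that of counting error alone and understates the uncertainty. Without CBPWTp53ΔIEC replicate 2, the only mouse of its group with a read, the log2 fold change with normal CBP was -7.57. Its group then held 0 reads, so the size of this value is set by the small count added. Without the 2 libraries with the highest Paneth cell marker sums (CBPWTp53ΔIEC replicate 1 and CBPAAp53ΔIEC replicate 3) the log2 fold changes were -5.35 (SE 0.78) and -4.60 (SE 0.70). Without all 4 named above that with the alanine form was -3.81, from CBPAAp53ΔIEC replicate 2 as the only mouse left of its group, with 2 reads. Of the other receptors of this branch, Tnfrsf19 (TROY) had 2.71 ± 0.22 TPM (SD, n = 3) in CBPWTp53-floxed and 2.26 ± 0.616 TPM (SD, n = 3) in CBPWTp53ΔIEC crypts and did not pass the test after deletion (averaged log2 fold change 0.03, SE 0.20, adjusted p = 0.955). Edar, the receptor of ectodysplasin A1, did not pass the filter on low counts, with at most 0.182 TPM as a group mean.

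Phlda3, the inhibitor of Akt, was also near its floor after deletion. It had 7, 23 and 23 reads in CBPWTp53-floxed mice and 19, 30 and 12 in CBPAAp53-floxed mice, and 0, 2 and 2 or 0, 3 and 0 reads in CBPWTp53ΔIEC and CBPAAp53ΔIEC mice. No p53-deleted mouse reached the lowest floxed mouse of its CBP genotype, and 3 of the 6 p53-deleted mice had no read. The summed reads after deletion were 8.40% (95% interval 2.21% to 22.8%) of those in floxed mice with normal CBP and 4.87% (0.977% to 14.9%) with the alanine form. The fitted log2 fold changes were -3.43 (SE 0.73) and -4.17 (SE 0.74), and the latter was -7.36 without CBPAAp53ΔIEC replicate 2, the only mouse of its group with reads. That group then held 0 reads, so the size of this value is set by the small count that edgeR adds. Both log2 fold changes were -3.03 (SE 0.68) and -3.63 (SE 0.71) without the 2 libraries with the highest Paneth cell marker sums. Without the 4 the value with the alanine form was -2.49, from CBPAAp53ΔIEC replicate 2 as the only mouse left of its group, with 3 reads. The order of the values with normal CBP and with the alanine form is therefore not settled. CBPWTp53-floxed replicate 1, with 1.02 TPM, lay below the other floxed mice, which had between 1.49 and 2.56 TPM. The relatives Phlda1 and Phlda2 were not lower. Phlda2, an imprinted gene of the same family, passed the test as higher after p53 deletion with normal CBP (log2 fold change 1.70, SE 0.37, adjusted p = 0.034) and averaged over both genotypes (1.07, SE 0.26, adjusted p = 0.0327), from 4, 9 and 12 reads in CBPWTp53-floxed to 17, 26 and 30 reads in CBPWTp53ΔIEC mice. Phlda1 had an averaged log2 fold change of 0.34 (SE 0.16, adjusted p = 0.242).

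Ephx1, the epoxide hydrolase, was lower by a similar factor in both CBP genotypes and had enough reads for a narrow interval. Its level was 20.01, 19.4 and 19.8 TPM in CBPWTp53-floxed mice and 18.9, 21.9 and 23.2 TPM in CBPAAp53-floxed mice. After deletion it was 3.66, 5.82 and 7.51 TPM in CBPWTp53ΔIEC mice and 6.28, 7.99 and 4.42 TPM in CBPAAp53ΔIEC mice. All p53-deleted mice lay far below all floxed mice, and the p53-deleted mice of both CBP genotypes overlapped. The mean left was 28.7% with normal CBP and 29.2% with the alanine form. Log2 fold changes were -1.79 (SE 0.22, n = 3 per group) and -1.93 (SE 0.22, n = 3 per group). The lowest values after deletion, 3.66 and 4.42 TPM, were those of CBPWTp53ΔIEC replicate 1 and CBPAAp53ΔIEC replicate 3, which had the highest Paneth cell marker sums. Without these 2 libraries the log2 fold changes were -1.67 (SE 0.19) and -1.75 (SE 0.19). Without the 4 that with the alanine form was -1.55, with CBPAAp53ΔIEC replicate 2 as the only mouse left of its group. The part of Paneth cell and small intestine RNA in these values was not tested. With all libraries the other epoxide hydrolases did not pass the test. Ephx2, the soluble enzyme, had an averaged log2 fold change of -0.23 (SE 0.11, adjusted p = 0.257) and Ephx4 of 0.13 (SE 0.18, adjusted p = 0.718), and Ephx3 did not pass the filter on low counts.

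Of the 12 tested genes of the xenobiotic response, which Ephx1 is also part of, 0 passed as lower and 1 as higher after deletion with normal CBP. That gene was Gstp1, a glutathione S-transferase with near-identical copies that may share its reads, and it had a log2 fold change of 0.64 (SE 0.16, adjusted p = 0.0487). The shares of all tested genes that passed in this comparison were 0.856% as lower and 2.29% as higher. None of the 12 passed with the alanine form by edgeR, where 0 had an unadjusted p under 0.05 and DESeq2 also called 0. In that comparison 0.0274% of all tested genes passed as lower and 0% as higher. Without the 2 libraries with the highest Paneth cell marker sums, 1 of the 12 passed as lower and 0 as higher with the alanine form. With normal CBP, and also averaged, 1 then passed as lower and 1 as higher. The shares of all tested genes in that fit were 3.11% as lower and 5.01% as higher with the alanine form. Averaged, these shares were 4.31% and 7.12%. The median log2 fold change of the list with all libraries, averaged over both genotypes, was -0.03, beside 0.01 over all tested genes.

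Ccng1, cyclin G1, kept most of its level. It had 113, 110.0 and 111 TPM in CBPWTp53-floxed mice, 101, 72.4 and 94.3 TPM in CBPAAp53-floxed mice, 55.5, 80.2 and 69.5 TPM in CBPWTp53ΔIEC mice and 69.2, 72.7 and 70.6 TPM in CBPAAp53ΔIEC mice. With normal CBP the groups were well apart, and with the alanine form they touched, because CBPAAp53-floxed replicate 2 lay within the range of the p53-deleted mice. The mean left was 61.5% with normal CBP and 79.5% with the alanine form, and the latter was 72.7% without CBPAAp53-floxed replicate 2. Log2 fold changes were -0.67 (SE 0.13) and -0.46 (SE 0.13), and -0.66 (SE 0.14) and -0.48 (SE 0.14) without the 2 libraries with the highest Paneth cell marker sums. Without the 4 the value with the alanine form was -0.57, with CBPAAp53ΔIEC replicate 2 as the only mouse left of its group. Its relative cyclin G2, Ccng2, had an averaged log2 fold change of -0.06 (SE 0.10, adjusted p = 0.786).

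Trp53inp1 was lower after deletion with normal CBP, and with the alanine form its groups overlapped. It had 57.7, 61.6 and 62.2 TPM in CBPWTp53-floxed mice and 24.2, 37.0 and 37.8 TPM in CBPWTp53ΔIEC mice, which lay apart. In CBPAAp53-floxed mice it had 59.2, 29.6 and 41.7 TPM, and in CBPAAp53ΔIEC mice 40.5, 37.2 and 43.7 TPM. In TPM only CBPAAp53-floxed replicate 1 lay above all CBPAAp53ΔIEC mice, at a level like that of the CBPWTp53-floxed mice. In CPM, the count scaled to library size alone, CBPAAp53-floxed replicates 1 and 3 (144.1 and 124.5 CPM) both lay above all CBPAAp53ΔIEC mice. These reached at most 111.1 CPM, and CBPAAp53-floxed replicate 2 had 81.1 CPM. The mean left was 54.5% with normal CBP and 93.0% with the alanine form. Log2 fold changes were -0.86 (SE 0.17) and -0.22 (SE 0.17). Replicate 2 of the CBPAAp53-floxed mice, with the lowest value, had 930 TPM of Paneth cell markers. Without the 4 libraries with the highest sums the log2 fold changes were -0.79 (SE 0.09) and -0.57 (SE 0.12), where 1 CBPAAp53ΔIEC mouse was left and was assumed to vary like the other groups. The relative Trp53inp2, which acts in autophagy, had an averaged log2 fold change of -0.26 (SE 0.08, adjusted p = 0.0709). Of the 9 family relatives of the 5 genes 7 were tested, and after deletion averaged over both genotypes 0 passed as lower and 1, Phlda2, as higher. Over all tested genes 0.732% passed as lower and 2.77% as higher there. Without the 2 libraries with the highest Paneth cell marker sums, 0 relatives passed as lower and 2 as higher averaged. With the alanine form alone 1 then passed as lower and 0 as higher. The shares of all tested genes in that fit were 4.31% and 7.12% averaged, and 3.11% and 5.01% with the alanine form. Without the 4, Phlda2 had an averaged log2 fold change of 0.97, with 1 CBPAAp53ΔIEC mouse left.

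**Figure D3:**
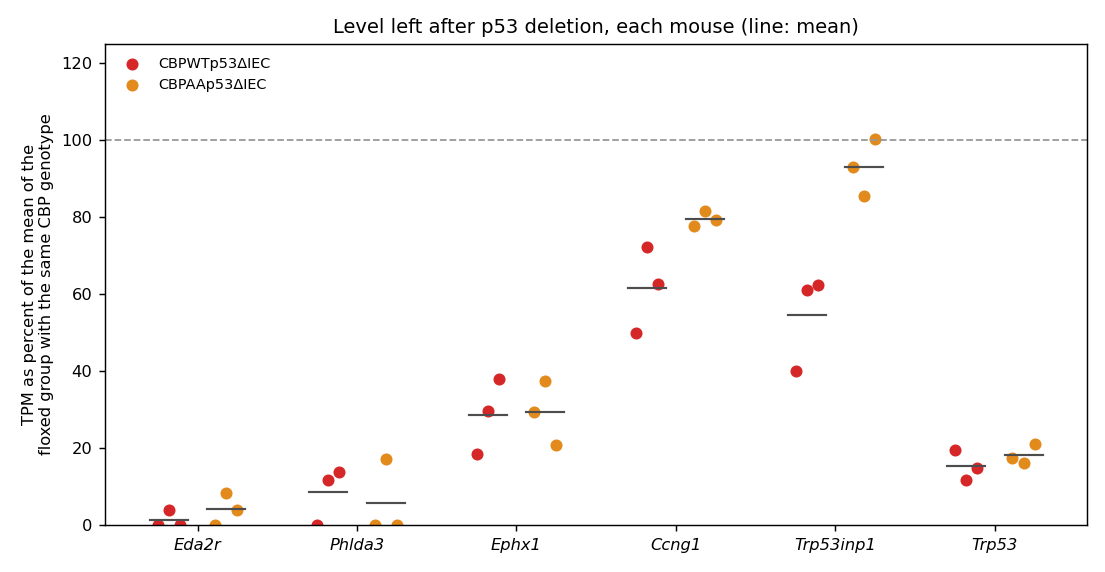
Level left in each p53-deleted mouse (points) as a percent of the mean TPM of the floxed group with the same CBP genotype (dashed line at 100%), with group means as lines. Eda2r and Phlda3 lay below Trp53 itself in mean, Ephx1 near 29%, and Ccng1 and Trp53inp1 between 54.5% and 93.0%. The Trp53 RNA left can come from other cells of the preparation, which keep the gene, and does not measure p53 protein.

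By mean TPM the 5 genes spread from almost nothing left to nearly the whole level. The mean level left was 1.28% for Eda2r, 8.47% for Phlda3, 28.7% for Ephx1, 54.5% for Trp53inp1 and 61.5% for Ccng1 with normal CBP, and 4.06%, 5.70%, 29.2%, 93.0% and 79.5% with the alanine form. The values of the last 2 genes depended on the measure. By summed reads scaled to library size, 55.76% of Trp53inp1 and 63.53% of Ccng1 was left with normal CBP. With the alanine form it was 89.15% and 74.43%. When 1 mouse was left out, the level left of Eda2r ranged with normal CBP from 0% (without CBPWTp53ΔIEC replicate 2) to 1.93%, and with the alanine form from 1.91% (without CBPAAp53ΔIEC replicate 2) to 6.09% (without CBPAAp53ΔIEC replicate 1). That of Phlda3 ranged from 5.86% (without CBPWTp53ΔIEC replicate 3) to 12.7% (without CBPWTp53ΔIEC replicate 1) and, with the alanine form, from 0% (without CBPAAp53ΔIEC replicate 2) to 8.55%. The order of these 2 genes is therefore not settled with the alanine form. Every CBPWTp53ΔIEC mouse lay below every CBPWTp53-floxed mouse in CPM, the count scaled to library size alone, for 5 of the 5 genes, and every CBPAAp53ΔIEC mouse below every CBPAAp53-floxed mouse for 4 of the 5, with Trp53inp1 as the exception and Ccng1 apart in CPM but not in TPM. Over all tested genes these shares were 14.7% and 7.18%, and since the choice used these groups nothing is read from them.

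**Figure D4:**
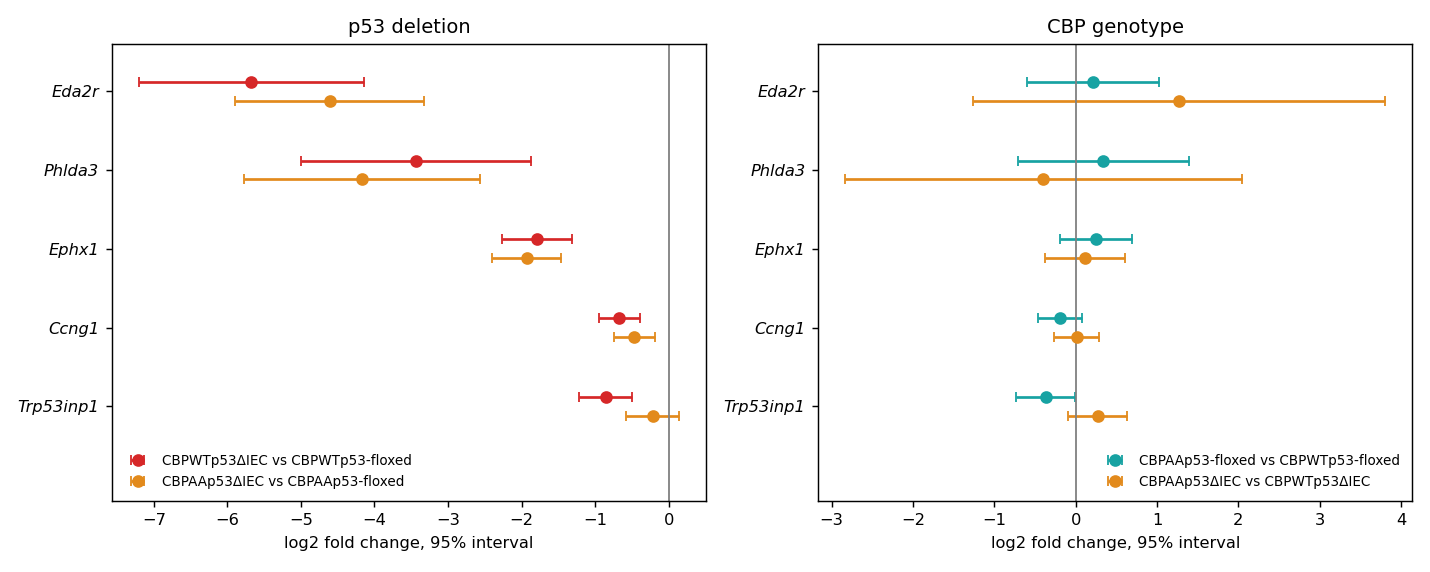
Log2 fold changes of the 5 genes with their 95% intervals for p53 deletion (left) and for CBP genotype (right), from the fit over all 12 libraries, with separate scales. The left panel describes the values used to choose the genes, from -5.67 for Eda2r with normal CBP to -0.22 for Trp53inp1 with the alanine form. Its intervals for Eda2r and Phlda3 are approximate, since these genes had few reads. Intervals for CBP genotype included 0 except that of Trp53inp1 in floxed mice (-0.73 to -0.0043).

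The difference between both deletion effects (alanine form minus normal CBP) was 1.06 (SE 1.19) for Eda2r, -0.74 (SE 1.27) for Phlda3, -0.14 (SE 0.30) for Ephx1, 0.21 (SE 0.18) for Ccng1 and 0.64 (SE 0.24) for Trp53inp1 on the log2 scale. It is given as a description because it is built from the comparisons the choice used. Its 95% interval ran from 0.12 to 1.15 for Trp53inp1 and from -0.79 to 0.52 for Ephx1.

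Whether the alanine form of CBP changed the 5 genes was a comparison that the choice did not use. In floxed mice, 0 of the 5 passed the test between CBPAAp53-floxed and CBPWTp53-floxed crypts by edgeR, where 1 (Trp53inp1) had an unadjusted p under 0.05 and DESeq2 also called 0. Over all tested genes 0% passed in this comparison by edgeR, where 1174 had an unadjusted p under 0.05 and DESeq2 called 34. Log2 fold changes were 0.21 for Eda2r (95% interval -0.60 to 1.03, adjusted p = 0.877), 0.34 for Phlda3 (-0.71 to 1.39, adjusted p = 0.845) and 0.25 for Ephx1 (-0.19 to 0.69, adjusted p = 0.725). They were -0.19 for Ccng1 (-0.47 to 0.08, adjusted p = 0.670) and -0.37 for Trp53inp1 (-0.73 to -0.0043, adjusted p = 0.618). Eda2r, Phlda3 and Ephx1 were thus slightly higher in the fit and the other 2 slightly lower, none beyond the test. In TPM, Ccng1 was lower in every CBPAAp53-floxed mouse (89.1 ± 14.8 TPM, SD, n = 3) than in every CBPWTp53-floxed mouse (111 ± 1.35 TPM, SD, n = 3), with p = 0.1 in a two-sided exact permutation test, the smallest that 3 against 3 allow (0.667 adjusted over 10 tests). Of all tested genes, 14.4% were lower in every CBPAAp53-floxed than in every CBPWTp53-floxed mouse in TPM. In CPM the groups of Ccng1 overlapped, with CBPAAp53-floxed replicate 3 at 152.7 CPM above CBPWTp53-floxed replicates 2 (149.2 CPM) and 3 (144.2 CPM). Trp53inp1 had 43.5 ± 14.9 TPM (SD, n = 3) against 60.5 ± 2.45 TPM (SD, n = 3), with p = 0.2 in the same exact test. Both genes were lowest in CBPAAp53-floxed replicate 2, and without the 4 libraries with the highest Paneth cell marker sums their log2 fold changes were -0.07 (SE 0.10) and -0.16 (SE 0.09).

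In p53-deleted mice, 0 of the 5 passed between CBPAAp53ΔIEC and CBPWTp53ΔIEC crypts by edgeR, where 0 had an unadjusted p under 0.05 and DESeq2 called 0. Over all tested genes 0.00684% passed there. The log2 fold change was 0.11 for Ephx1 (95% interval -0.37 to 0.60), 0.01 for Ccng1 (-0.26 to 0.29) and 0.27 for Trp53inp1 (-0.09 to 0.64). For Eda2r (1.27, -1.26 to 3.81) and Phlda3 (-0.40, -2.83 to 2.04) the intervals were too wide at this depth to show a difference, since no library held more than 3 reads. The adjusted p-values of the 5 lay between 0.985 and 0.999. Averaged over both p53 states, 0 of the 5 passed by edgeR, where again 0 had an unadjusted p under 0.05 and DESeq2 called 0, beside 0.00684% of all tested genes. Averaged log2 fold changes lay between -0.09 (Ccng1) and 0.74 (Eda2r). The interval of Ccng1, the most precise, ran from -0.28 to 0.10. Crebbp itself had 9.54 ± 1.73 TPM (SD, n = 3) in CBPWTp53-floxed and 8.02 ± 1.48 TPM (SD, n = 3) in CBPAAp53-floxed crypts, with a log2 fold change of -0.13 (SE 0.13, adjusted p = 0.768). Of p53 and its relatives and coactivators (Trp53, Trp63, Crebbp and Ep300), 3 were tested, and Trp53 was the one that passed after p53 deletion.

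Most other p53 targets did not pass the test after p53 deletion. The list of these targets leaves out the 5 genes, which were chosen as lower in these comparisons. How few of the rest were lower is therefore partly set by that choice. Of a list of 50, 49 were tested, and after deletion averaged over both CBP genotypes 2 passed as lower and 1 as higher. Over all tested genes 0.732% passed as lower and 2.77% as higher in that comparison. Gdf15, a stress cytokine, had a log2 fold change of -1.36 (SE 0.22, adjusted p = 0.0111) and Plk2, a polo-like kinase, of -0.61 (SE 0.10, adjusted p = 0.0117). Ckap2, a spindle protein, rose by 1.22 (SE 0.26, adjusted p = 0.0211). With normal CBP alone Plk2 (-0.71, SE 0.15, adjusted p = 0.0316) and Rrm2b, a ribonucleotide reductase subunit (-0.82, SE 0.18, adjusted p = 0.0349), passed as lower. These calls with normal CBP alone were not kept in all fits. By edgeR 0 of the 49 passed there without any 1 of the CBPWTp53-floxed mice or of CBPWTp53ΔIEC replicates 2 and 3. With the replicate number as a block 0 passed too. Both genes did pass as lower by DESeq2 (adjusted p = 0.00066 for Plk2 and 0.0025 for Rrm2b). Without the 2 libraries with the highest Paneth cell marker sums they also passed by edgeR (adjusted p = 0.0113 and 0.017). With the alanine form alone 0 of 49 passed by edgeR, where 9 had an unadjusted p under 0.05 and DESeq2 called 1, Gdf15. The 5 genes are therefore not the only p53 targets that were lower. The median averaged log2 fold change of the 49 was -0.01, beside 0.01 over all tested genes, and 25 of the 49 were below 0. Between CBP genotypes 0 of the 49 passed by edgeR or DESeq2, and 3 had an unadjusted p under 0.05 in floxed mice, 3 in p53-deleted mice and 2 averaged. Among all 14610 tested genes these numbers were 1174, 521 and 375 by edgeR.

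Several of the best-known targets did not pass. Cdkn1a had an averaged log2 fold change of -0.12 (SE 0.14, adjusted p = 0.670), Mdm2, the ubiquitin ligase that holds p53 down, of -0.01 (SE 0.08, adjusted p = 0.965), and Bax of -0.05 (SE 0.14, adjusted p = 0.858). Perp, a desmosome protein, had -0.16 (SE 0.13, adjusted p = 0.493) and Zmat3, a zinc finger RNA-binding protein, -0.13 (SE 0.09, adjusted p = 0.426). The 95% interval of Mdm2 ran from -0.19 to 0.17 and that of Cdkn1a from -0.43 to 0.19. These 5 targets were named after their values were seen.

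**Figure D5:**
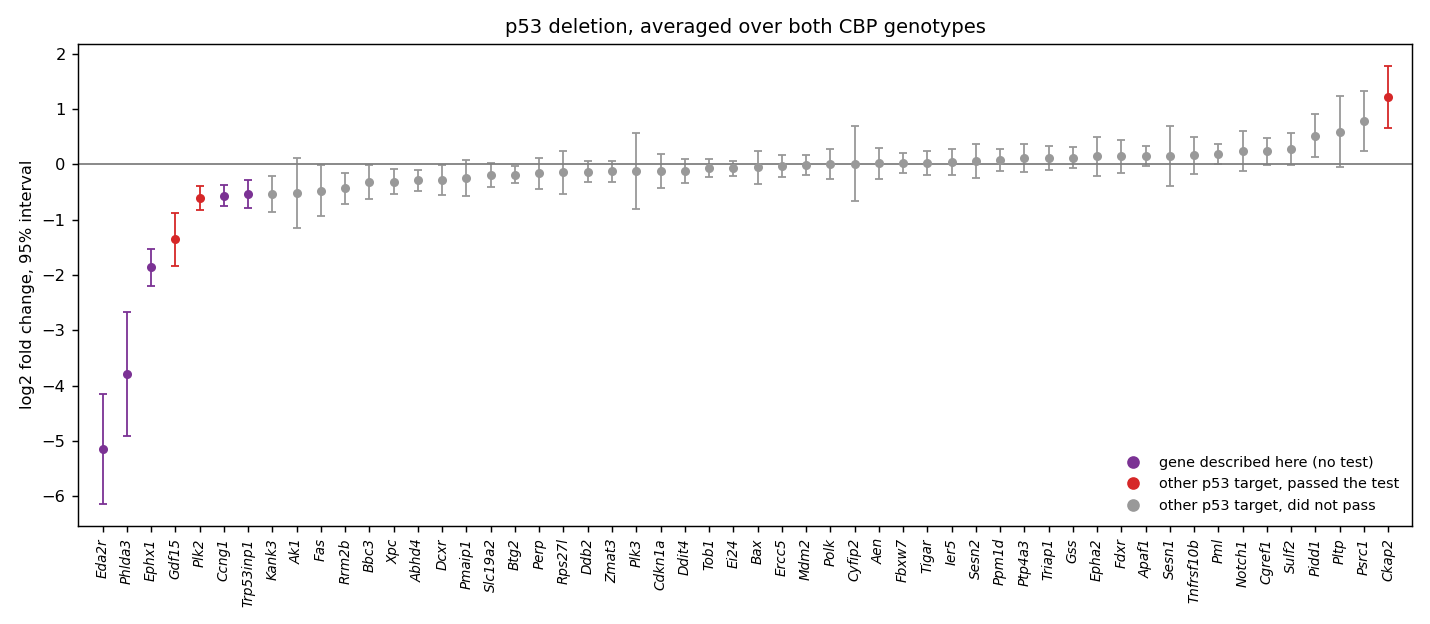
Averaged log2 fold change after p53 deletion with its 95% interval for the 5 genes described here and the 49 other p53 targets that were tested, in order of size. Gdf15 (-1.36) and Plk2 (-0.61) passed the test as lower and Ckap2 (1.22) as higher.

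The number of other targets that passed was also higher when the libraries with the most Paneth cell RNA were left out. Without CBPWTp53ΔIEC replicate 1 and CBPAAp53ΔIEC replicate 3, a choice made after the data were seen, 4 passed as lower (Fas, Gdf15, Plk2 and Kank3) and 3 as higher (Pidd1, Psrc1 and Ckap2) when averaged over both CBP genotypes. Over all tested genes 4.31% then passed as lower and 7.12% as higher. Fas, the death receptor, had a log2 fold change of -0.83 (SE 0.14, adjusted p = 0.0008) there and of -0.48 (SE 0.21, adjusted p = 0.214) with all libraries. With the alanine form alone 6 passed as lower (Pmaip1, Fas, Gdf15, Plk2, Abhd4 and Dcxr) and 3 as higher (Psrc1, Ckap2 and Notch1), beside 3.11% and 5.01% of all tested genes. The 5 genes themselves had averaged log2 fold changes between -4.98 (Eda2r) and -0.54 (Trp53inp1) in that fit, against -5.14 to -0.54 in all libraries.

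Proliferation genes rose in the same comparison. All 10 of the list passed as higher after deletion averaged over both CBP genotypes, and 9 with normal CBP alone, with a median averaged log2 fold change of 1.58. With the alanine form alone 0 passed by edgeR, where 9 had an unadjusted p under 0.05 and DESeq2 called 3. Without the 2 libraries with the highest Paneth cell marker sums 10 passed averaged, with a median of 1.897, and 9 with the alanine form alone, with a median of 1.76. Without the 4 the medians were 1.81 averaged and 1.58 with the alanine form, with CBPAAp53ΔIEC replicate 2 as the only mouse left of its group. In all libraries Mki67, the proliferation antigen Ki-67, had an averaged log2 fold change of 1.51 (SE 0.34, adjusted p = 0.0379). Their summed TPM was 138 to 203 in floxed mice, and 403 to 523 in p53-deleted mice apart from CBPWTp53ΔIEC replicate 1 (231) and CBPAAp53ΔIEC replicate 3 (168). Among the 9 stroma markers, 2 passed the filter on low counts and the list summed to between 4.18 and 8.33 TPM in all libraries. One of them, Pdgfrb, a pericyte receptor, passed as lower with normal CBP and averaged, and had between 1.81 and 6.49 TPM in the libraries. The collagen gene Col1a1 reached at most 0.149 TPM and the endothelial cadherin Cdh5 was at 0 in all of them. Endothelium markers summed to between 0.855 and 1.66 TPM and leukocyte markers to between 3.30 and 6.23 TPM. The part of these cell types and of proliferation in the values of the 5 genes was not tested.

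Partners of the 5 proteins, such as Akt1, Traf6 and the phosphatase subunit Ppp2ca, did not pass the test. Of 12 listed, 11 were tested, and 0 passed after deletion averaged over both genotypes by edgeR, where 1 had an unadjusted p under 0.05 and DESeq2 called 0. Over all tested genes 0.732% passed as lower and 2.77% as higher in that comparison, so 0 of 11 says little about the partners. The ligand gene Eda did not pass the filter on low counts.

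Within 100 kb of the 5 genes, 16 other genes were tested, and 2 passed after deletion averaged over both CBP genotypes, 1 as higher and 1 as lower. Over all tested genes 2.77% passed as higher and 0.732% as lower, and whether nearness played a part was not tested. Hmmr, which encodes a hyaluronan receptor of the mitotic spindle and lies 15130 bases from Ccng1, rose by 1.78 (SE 0.34, adjusted p = 0.0182). Gm11830, a processed pseudogene 11161 bases from Trp53inp1, fell by 2.00 on the log2 scale (SE 0.44, adjusted p = 0.0234). Neither Phlda3 nor Ephx1 had a neighbour that passed among 4 tested each, and Eda2r had no tested neighbour.

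Across the 12 libraries the 5 genes varied together, mostly through the p53 groups. Pearson's r of their log2 CPM was 0.968 for Eda2r with Ephx1, 0.955 for Phlda3 with Ephx1 and 0.944 for Eda2r with Phlda3. It was 0.863 for Ccng1 with Trp53inp1 and lowest, 0.595, for Phlda3 with Trp53inp1. Taken as deviations from the group means, r was 0.664 for Ccng1 with Trp53inp1, 0.633 for Eda2r with Ccng1 and 0.509 for Phlda3 with Ephx1. It was between -0.291 and 0.351 for the other 7 pairs. Over the 6 floxed libraries alone, r of these deviations was 0.765 for Ccng1 with Trp53inp1 and 0.68 for Eda2r with Ccng1. For Phlda3 with Ephx1 it changed sign there, to -0.374, and for Eda2r with Phlda3 it was -0.409. Eda2r and Phlda3 had few reads in the p53-deleted libraries. Ccng1 and Trp53inp1 are thus the pair that varied most alike among mice of a group, and in both CBPAAp53-floxed replicate 2 was the lowest of its group, at 107.5 CPM of Ccng1 and 81.1 CPM of Trp53inp1. These values are descriptions over libraries that share depth, dissection and scaling.

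The genes most like the 5 in their pattern, by mean r over the 5 and 12 libraries, were Cep15 (0.888), Trp53-ps (0.869), Plk2 (0.857), Oplah (0.855), Trp53 (0.853), Appl2 (0.853), Retreg1 (0.846), Gm37795 (0.845), Cyp2d10 (0.839) and Lama5 (0.833). Trp53-ps is a pseudogene of Trp53 and can share its reads, so both count as 1 signal. Cep15 led the list with a small difference, from 18.4 ± 0.479 TPM (SD, n = 3) in CBPWTp53-floxed to 15.1 ± 2.68 TPM (SD, n = 3) in CBPWTp53ΔIEC crypts, and its averaged log2 fold change of -0.20 (SE 0.06, adjusted p = 0.0817) did not pass. Cyp2d10, a cytochrome P450, had 73.0 ± 9.04 TPM (SD, n = 3) and 35.4 ± 6.25 TPM (SD, n = 3) in these groups, and Lama5, a laminin chain, 3.21 ± 0.438 TPM and 1.63 ± 0.703 TPM (SD, n = 3 each). Both passed as lower when averaged (Cyp2d10 -0.85, SE 0.12, adjusted p = 0.0084, and Lama5 -0.99, SE 0.20, adjusted p = 0.0175), and since they were picked for a pattern that contains this contrast, these tests are no support. Cyp2d10 has close relatives in its family with which it may share reads, so its level is uncertain. In deviations from group means the mean r of the 10 lay between -0.421 and 0.475.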

How the data were processed

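The authors prepared RNA of EDTA-isolated colonic crypts with a stranded mRNA kit and deposited 1 table for the 12 libraries, 1 per mouse, with raw counts and TPM per gene. Per the labels, reads were trimmed with fastp 0.20.0, checked with FastQC 0.11.9, aligned to GRCm38 with HISAT2 2.1.0 and SAMtools 1.9, and counted with featureCounts of Subread 2.0.1. The deposited counts are whole reads per gene that are not normalised, and the deposited TPM values were computed by the authors, scaled to gene length and library size. Whether counting used the strand is not given in the sources used here. The table also holds the authors' own fold changes and p-values, which were not used.

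Counts were fitted in R 4.3.3 with edgeR 4.0.16 (filterByExpr, TMM, robust quasi-likelihood test, 4 groups without covariates). P-values were Benjamini-Hochberg adjusted over 14610 genes. A gene passed at an adjusted p under 0.05 with a log2 fold change above 0.5 in size. TPM were compared between CBP genotypes by two-sided exact permutation tests (scipy 1.17.1). The 5 genes and all gene lists were chosen with earlier results of these data known. Named are the 5 genes, genes of each list that passed after p53 deletion (at most 10 by size), all family relatives, Trp53 and Crebbp, and the 10 genes most like the 5. Alternatives were DESeq2 1.42.0, its size factors, other filters on low counts, the 2 groups alone, no fold threshold, a replicate block, the leaving out of each library, and, chosen after seeing the data, the leaving out of the 2 or 4 libraries with the highest Paneth cell marker sums. The script was tested on simulated data. Of 55471 gene identifiers, 55144 matched GENCODE vM21. Promoter windows came from RefSeq (GRCm38.p6).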

Additional observations from a re-analysis of the deposited data

How the results depend on the processing

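None of the 5 genes passed in any CBP comparison under any alternative that gave a value, and their log2 fold changes after p53 deletion kept their sign in all of them. When 1 library was left out, the log2 fold change of Eda2r was -7.57 to -5.18 with normal CBP and -5.48 to -4.07 with the alanine form. That of Phlda3 was -3.76 to -3.03 and -7.36 to -3.63. Trp53inp1 with the alanine form was at -0.43 to -0.04, and its level left was 80.2% without CBPAAp53-floxed replicate 2 and 113.5% without replicate 1. Eda2r and Phlda3 gave no value under a minimum of 10 counts in every sample, and in some fits of the compared groups alone (Phlda3 after deletion with normal CBP, and both genes between p53-deleted groups).

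Small CBP differences changed sign with single libraries. When 1 library was left out, the log2 fold change in floxed mice was -0.035 to 0.38 for Eda2r. In p53-deleted mice it was -3.59 to 0.15 for Phlda3, -0.094 to 0.29 for Ephx1 and -0.068 to 0.11 for Ccng1. Averaged, it was -1.62 to 0.24 for Phlda3 and -0.14 to 0.055 for Trp53inp1. TPM differences ranged from -0.0386 to 0.136 for Eda2r and -0.0644 to 0.677 for Phlda3 in floxed mice, and from -0.155 to 0.0303 for Phlda3, -0.433 to 1.49 for Ephx1 and -4.01 to 8.34 for Ccng1 in p53-deleted mice. Without the 2 libraries with the highest Paneth cell marker sums, Ccng1 in p53-deleted mice was at -0.025 and averaged Phlda3 at 0.034. Without the 4, Phlda3 was at 0.70 in p53-deleted mice and 0.43 averaged, with CBPAAp53ΔIEC replicate 2 as the only mouse left of its group.

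The number of other p53 targets that passed was 2 with normal CBP, 0 with the alanine form and 3 averaged. DESeq2 gave 4, 1 and 4, the 2 groups alone 4 with normal CBP, and no filter on low counts 1 with the alanine form. Leaving out 1 library gave 0 to 4, 0 to 3 and 2 to 6. With normal CBP the number was 0 without any 1 of the CBPWTp53-floxed libraries or of CBPWTp53ΔIEC replicates 2 and 3, and 4 without CBPWTp53ΔIEC replicate 1 or CBPAAp53ΔIEC replicate 3. With the alanine form it was 3 without CBPAAp53ΔIEC replicate 3, and averaged it was 6 without CBPWTp53ΔIEC replicate 1 and 5 without CBPAAp53ΔIEC replicate 3. Without the 2 libraries with the highest Paneth cell marker sums it was 6, 9 and 7, and without the 4 it was 6, 8 and 9. The cause was not tested.

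Mice with the same replicate number did not deviate together, since 3 of 18 such pairs had a correlation over 0.1 (range -0.526 to 0.548). With the replicate number as a block, 0 of the other targets passed with normal CBP, 0 of the 5 genes passed in any CBP comparison, and averaged Phlda3 stood at 0.0061.

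Of the 10 genes most like the 5, 6 stayed among the first 10 without CBPWTp53ΔIEC replicate 1 and 0 with deviations from group means. Over all genes edgeR and DESeq2 called 460 and 863 genes after deletion with normal CBP, 4 and 73 with the alanine form, and 0 and 34 between the floxed groups. With at most 3 reads per p53-deleted library, depth limits Eda2r and Phlda3 to the intervals given.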
